A study of Mus musculus with 1087 samples.

Results

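The SoxF genes Sox7, Sox17 and Sox18 were followed across single cells of the mouse AGM, the embryonic region of the aorta, gonads and mesonephros. They are 3 of the 46078 genes in the deposited count table and were matched by gene symbol. All 3 were read throughout the endothelial clusters, in nearly every cell. In the hematopoietic clusters the levels were lower. Sox18 was still read in most cells of hematopoietic cluster 8, while Sox7 and Sox17, at equal depth, were read in a minority of them. Sox18 also had the highest level in endothelium, so these shares do not compare the size of the fall between genes. SoxF factors are known from arterial endothelium, but the endothelial clusters here had mixed markers: the ligands Dll4 and Efnb2 were read in many of their cells, the arterial connexins in few and venous genes in nearly all.

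Embryos were Gata2V/+, heterozygous for an allele of Gata2 linked to the Venus fluorescent protein, from C57BL/6HsdJOla females crossed with Gata2V/V males, so every group carries 1 Venus allele. AGM tissue, with the trunk part of the vitelline and umbilical arteries, was dissociated and sorted with antibodies to CD31, cKit and CD27 and on Venus. All sample names carry the tag KitHi. Of 1087 cells, 87 were E10 G2VInt (intermediate Venus), 130 were E11 G2VInt, 25.7% were E11.5 G2VInt, 10.9% were E11.5 CD27+ and 43.4% were E11.5 G2VLo (low Venus). For CD27+ cells no Venus gate is stated. No label ties cells to an embryo or a sort, so each group is 1 sample, its cells are not replicates, and no test was run. Levels are CPM, the reads of a gene summed over a set of cells and scaled to 1000000 reads, with exact Poisson 95% intervals. Shares are of cells thinned to 100000 reads each, with Clopper-Pearson 95% intervals. These intervals hold counting error alone, and PCR copies were counted as reads, so they are too narrow. A count of 0 allows up to 3 reads or cells.

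The median G2VInt cell had 2121423 reads (E10), 2212898 reads (E11) or 1892779 reads (E11.5), and the median CD27+ and G2VLo cells had 621544 and 539090. The gates at E11.5 therefore differ in depth as well as in Venus, and G2VInt library numbers lie apart from those of G2VLo, inside whose range the CD27+ block falls. The study's labels give each cell a cluster and a class. Class EC (clusters 1 and 2) was read as endothelial and classes HC1 (clusters 7 and 8) and HC2 as hematopoietic from marker genes. At E11.5 the junction gene Cdh5 stood at 297.5 CPM in EC cluster 2 and 59.7 CPM in HC1 cluster 8 of G2VInt, and Runx1 at 1.17 and 200.3 CPM, so HC1 cells still carried endothelial transcripts. Which genes formed the clusters is not given in the sources used here, and the SoxF genes may be among them. Differences between clusters are therefore descriptions and support nothing further.

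SoxF proteins are transcription factors that bind DNA through a high mobility group (HMG) box. They are made in endothelium, where they act together in forming arteries, veins and lymphatics. In the mouse, Sox17 is known for its part in arterial identity and in the endothelium from which blood stem cells arise, Sox18 for switching on the lymphatic regulator Prox1, and Sox7 for its early expression in precursors of blood and endothelium, where its level falls as blood cells form.

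Sox7 (ENSMUSG00000063060) lies on the plus strand at chr14:63943673-63950732 (GRCm38) and its first transcript has 2 exons. Sox17 (ENSMUSG00000025902) lies on the minus strand at chr1:4490931-4497354 and its first transcript has 5 exons. Sox18 (ENSMUSG00000046470) lies on the minus strand at chr2:181669836-181671640 and has 2 exons. The table held 153914 reads of Sox7, 146060 of Sox17 and 383893 of Sox18. The exons of Sox17 overlap 804 bases of Gm37587, a noncoding transcript of the other strand with 622 reads in all cells. Whether counting used strand is not given in the sources used here, so reads of these overlapping genes cannot be told apart with certainty.

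Sox17, the member known for arterial identity, had its highest E11.5 levels in EC cluster 2. In the 54 G2VInt cells of that cluster at E11.5 it stood at 309.1 CPM (305.999 to 312.2), with 11.6 CPM in the lowest cell, 231.1 in the median cell and 1136 in the highest. In the G2VLo cells it stood at 275.3 CPM (271.7 to 278.9), with a lowest cell of 5.75, a median of 231.1 and a highest of 705 CPM. All cells of EC cluster 2 at E11.5 had a Sox17 read before thinning, in both gates. EC cluster 1 stood at 184.8 CPM in G2VInt and 249.3 CPM in G2VLo, below EC cluster 2 in both gates, though in G2VLo cells of library numbers above the CD27+ block EC cluster 2 over EC cluster 1 was 0.927. HC1 cluster 7 stood at 52.9 CPM in G2VInt and 71.03 CPM in G2VLo, with median cells of 2.54 and 3.23 CPM. HC1 cluster 8 stood at 18.6 CPM in G2VInt and 18.3 CPM in G2VLo, and class HC2 at 0.670 and 2.82 CPM. A single cell held 76.4% of the Sox17 reads of HC1 cluster 8 in G2VInt, and a single cell held 87.9% of those of HC2 in G2VLo.

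Sox7, the early member, had the other order within endothelium. EC cluster 2 stood at 202.2 CPM (199.8 to 204.7) in G2VInt and 184.98 CPM (182.1 to 187.9) in G2VLo, against 301.6 CPM (298.8 to 304.3) and 208.6 CPM (204.1 to 213.2) in EC cluster 1. EC cluster 2 over EC cluster 1 gave 0.671 for Sox7, 1.67 for Sox17 and 1.35 for Sox18 in G2VInt, and 0.887, 1.10 and 1.33 in G2VLo. None (0 of 3) passed 2-fold either way, against 1.33% of measured genes higher and 4.12% lower in G2VInt, and 1.46% and 4.04% in G2VLo. In EC cluster 2 of G2VInt the lowest, median and highest cells had 0.533, 129.8 and 2221 CPM, and a single cell held 25.1% of the reads. HC1 cluster 7 stood at 97.6 CPM in G2VInt and 117.8 CPM in G2VLo, with median cells of 53.1 and 35.7 CPM. HC1 cluster 8 stood at 18.8 CPM in G2VInt and 10.3 CPM in G2VLo, where the median cell had 1.01 and 0 CPM. HC2 stood at 0.751 and 0.243 CPM.

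Sox18, the member tied to lymphatic development, had the highest level per length of the family in every cluster of EC and HC1. EC cluster 2 stood at 805 CPM (799.8 to 809.8) in G2VInt and 579.7 CPM (574 to 585) in G2VLo, with lowest cells of 63.9 and 97.7 CPM, median cells of 765 and 569 CPM, and highest cells of 1634 and 1501 CPM. EC cluster 1 stood at 596 CPM in G2VInt and 437.1 CPM in G2VLo. HC1 cluster 7 stood at 207.7 CPM in G2VInt and 146.7 CPM in G2VLo. HC1 cluster 8 stood at 88.1 CPM in G2VInt and 75.1 CPM in G2VLo, with median cells of 50.4 and 54.1 CPM. The medians of Sox7 and Sox17 in this cluster were far lower, but medians of different genes need not come from the same cell. HC2 stood at 2.16 CPM in G2VInt and 24.1 CPM in G2VLo.

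**Figure D1:**
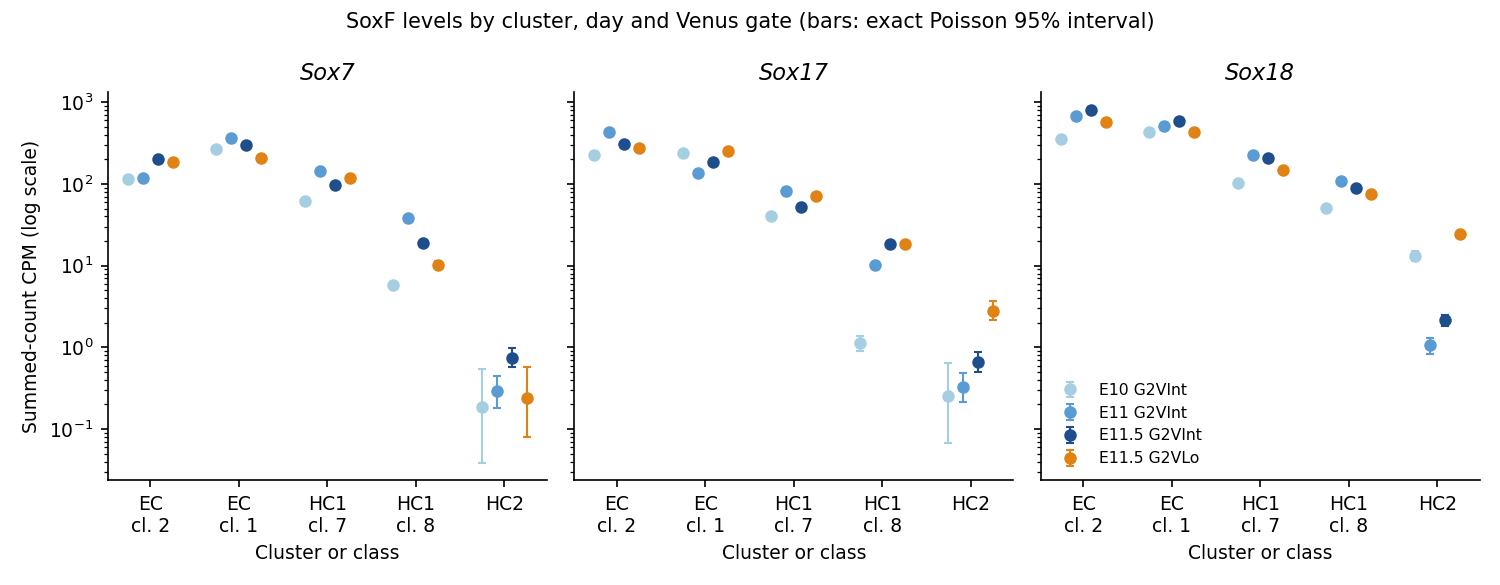
Summed-count CPM (log axis) of Sox7, Sox17 and Sox18 in 2 EC clusters, 2 HC1 clusters and class HC2, by day and Venus gate; points are cell sets and bars exact Poisson 95% intervals, which are often smaller than the point. The EC clusters lie above HC1 cluster 7, except for Sox7 at E11, where EC cluster 2 had 118.8 CPM and HC1 cluster 7 had 142.7 CPM; HC1 cluster 8 lies lower and HC2 lowest.

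**Figure D2:**
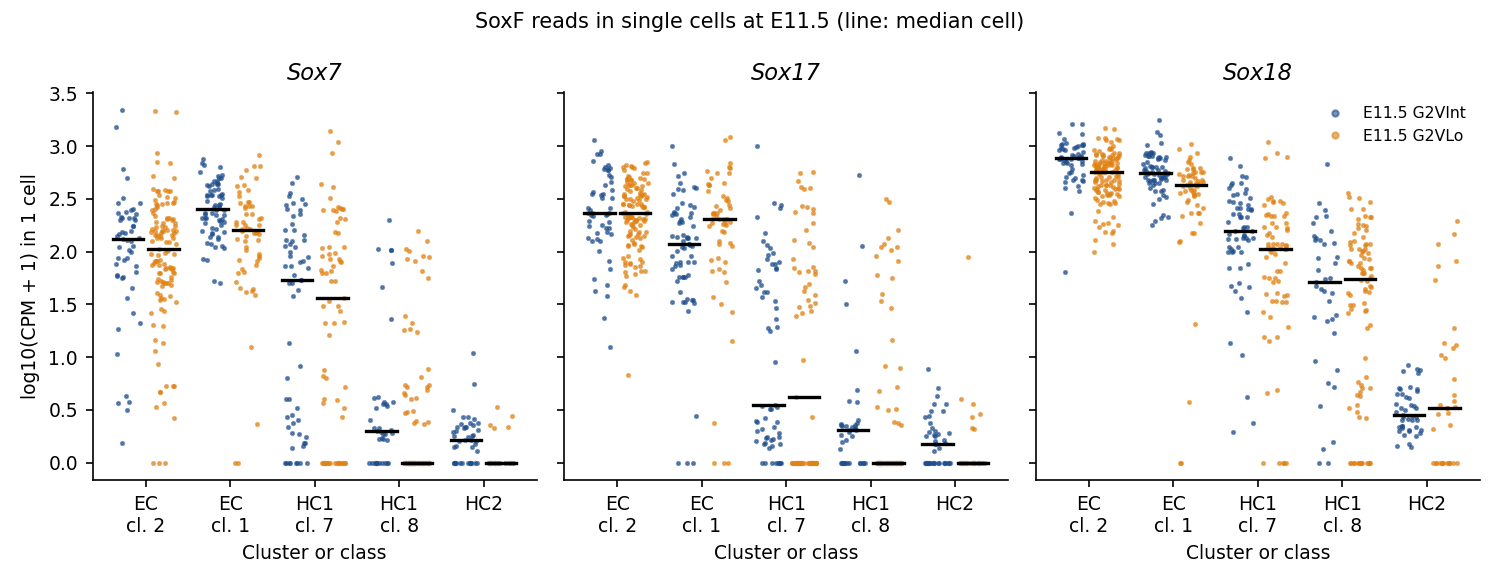
Each point is 1 cell at E11.5, as log10(CPM + 1), with G2VInt cells left of G2VLo cells and a line at the median cell. Median cells of HC1 cluster 8 lie at 50.4 CPM (G2VInt) and 54.1 CPM (G2VLo) for Sox18 but at 1.03 and 0 CPM for Sox17.

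Between genes, levels are comparable only per length. In CPM per kilobase of the first transcript, Sox18 stood at 497 in EC cluster 2 of G2VInt, Sox17 at 98.8 and Sox7 at 61.3. In EC cluster 1 of G2VInt the same scale gave 368.02 for Sox18, 59.1 for Sox17 and 91.4 for Sox7, so the order of Sox7 and Sox17 turned round between the EC clusters. In G2VLo the order in EC cluster 2 was again Sox18 (357.8), Sox17 (88.04) and Sox7 (56.1). EC cluster 1 of G2VLo gave 269.8 for Sox18, 79.7 for Sox17 and 63.2 for Sox7. Over all annotated exons of Sox17, a longer measure, its value there was 52.3, below that of Sox7.

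The step between the endothelial and hematopoietic clusters was large for the whole family. EC cluster 2 over HC1 cluster 8 in G2VInt gave ratios of 16.6 (15.7 to 17.6) for Sox17, 10.8 (10.2 to 11.4) for Sox7 and 9.14 (8.90 to 9.39) for Sox18. All 3 were at least 2-fold higher, against 13.7% of 10392 measured genes, those with 10 CPM or more in 1 set and reads in 5% of that set's cells. In G2VLo the ratios were 15.1 for Sox17, 17.99 for Sox7 and 7.72 for Sox18, against 12.1% of 10157 genes. Without the highest HC1 cluster 8 cell, the Sox17 ratio in G2VInt was 68.4. Over all measured genes the log2 ratio had a median of -0.20 in G2VInt and -0.21 in G2VLo, so the members' ratios would be somewhat larger relative to it.

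HC1 cluster 7 lay between. EC cluster 2 over HC1 cluster 7 gave 5.85 for Sox17, 2.07 for Sox7 and 3.87 for Sox18 in G2VInt, all 3 at least 2-fold higher, against 11.1% of measured genes, but without 1 cell the Sox7 ratio was 1.59. In G2VLo it gave 3.88, 1.57 and 3.95 in the same order, 2 of 3 at least 2-fold higher, against 11.4%. HC1 cluster 7 over HC1 cluster 8 gave 2.84 for Sox17, 5.20 for Sox7 and 2.36 for Sox18 in G2VInt, all 3 past 2-fold, against 5.78% of genes higher and 2.85% lower. In G2VLo it gave 3.89, 11.46 and 1.95, 2 of 3 past 2-fold, against 4.09% higher and 3.44% lower. In G2VLo cells of library numbers above the CD27+ block, EC cluster 2 over HC1 cluster 7 was 1.93 for Sox17, and HC1 cluster 7 over HC1 cluster 8 was 6.47 for Sox7 and 1.33 for Sox18. Sox7 therefore had its larger step between the HC1 clusters and Sox17 its larger step between endothelium and HC1 cluster 7 in G2VInt; in G2VLo the Sox17 steps were nearly equal, and without 1 cell of HC1 cluster 8 the Sox17 step between the HC1 clusters in G2VInt was 11.7.

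The cells in which SoxF levels were highest were checked against arterial and venous markers. In EC cluster 2 of G2VInt the arterial connexins Gja5 and Gja4 were read in 5.56% (1.16 to 15.4) and 25.9% (14.96 to 39.7) of cells. In the same cells the vein regulator Nr2f2 was read in 94.4%, the apelin receptor Aplnr in 96.3% and the vein receptor Ephb4 in all cells. The Notch ligand Dll4 and the arterial ligand Efnb2 were read in 83.3% and 81.5%. EC cluster 1 of G2VInt had Gja5 in 2.94%, Gja4 in 14.7%, Dll4 in 42.6% and Nr2f2 in 98.5% of cells. G2VLo cells gave the same picture, with Gja5 in 4.03% of EC cluster 2 and 6.67% of EC cluster 1, and Nr2f2 in 81.5% and 93.3%. The Gja5 level of EC cluster 2, 51.3 CPM in G2VInt and 30.5 CPM in G2VLo, thus came from a few cells.

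HC1 cluster 7, by contrast, had Gja5 in 69.8% of its cells in G2VInt and 59.2% in G2VLo, at 116.2 and 122.2 CPM, and Nr2f2 in 1.59% and 4.23%. Its Aplnr level was 5.55 CPM in G2VInt and 3.28 CPM in G2VLo, against 2117 and 1774 CPM in EC cluster 2, though Aplnr was read in 39.7% and 32.4% of its cells. The venous gene Ephb4 was read in most HC1 cluster 7 cells, 82.5% in G2VInt and 71.8% in G2VLo. Its level there was 60.4 and 59.8 CPM, against 297.6 and 200.3 CPM in EC cluster 2, so the venous genes did not all part the clusters by share. The other arterial genes had another order. Dll4 was read in 83.3% of EC cluster 2 cells at 127.9 CPM and in 55.6% of HC1 cluster 7 cells at 74.3 CPM in G2VInt, and Efnb2 in 81.5% at 48.8 CPM and in 55.6% at 27.3 CPM. In G2VLo Efnb2 was read in 81.5% and 46.5%. Gja4 had 123.05 CPM in EC cluster 2 and 116.9 CPM in HC1 cluster 7 of G2VInt, but was read in 25.9% and 55.6% of their cells. The arterial gene Hey2 was nearly unread in both clusters of G2VInt, in 1.85% of EC cluster 2 and 1.59% of HC1 cluster 7 cells. The arterial genes thus did not fall together: Gja5 was read more widely in HC1 cluster 7, and Dll4 and Efnb2 in EC cluster 2, beside venous genes. These are shares of a sort on cKit, and they say nothing of endothelium outside it.

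**Figure D3:**
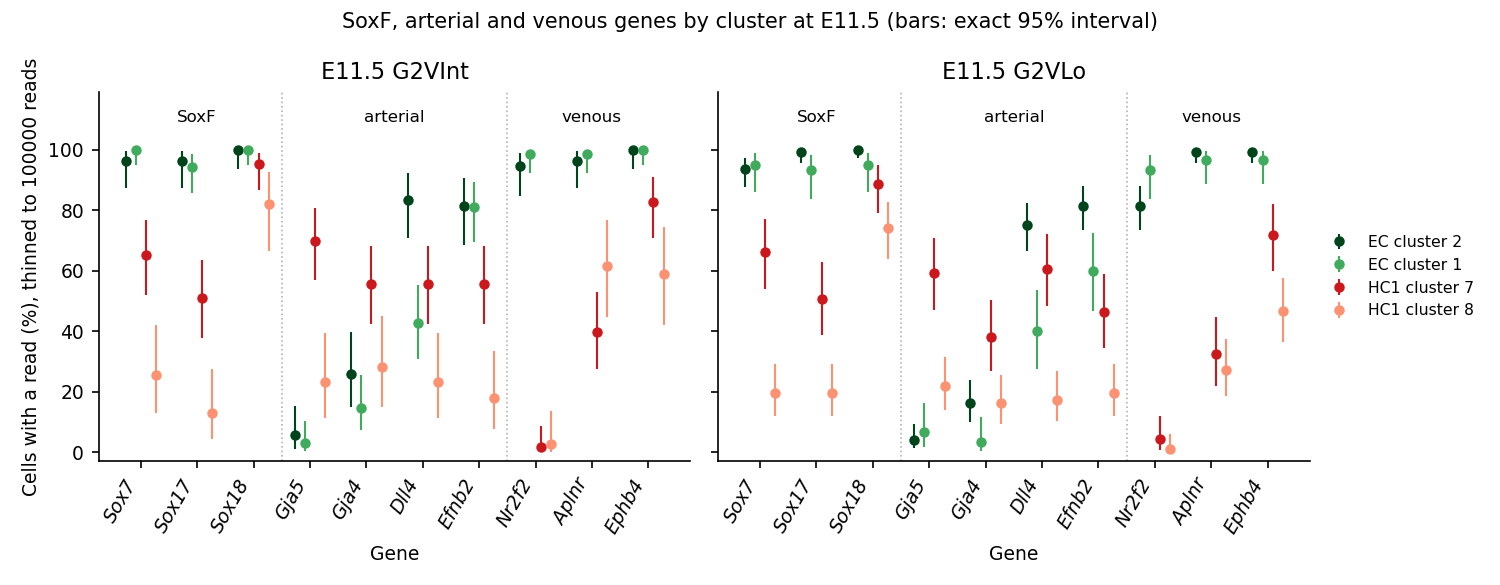
Share of cells (thinned to 100000 reads) with a read of each SoxF, arterial and venous gene at E11.5, G2VInt left and G2VLo right, with exact 95% intervals. Both EC clusters lie above 81% for SoxF and venous genes and below 7% for Gja5, while HC1 cluster 7 has Gja5 in 69.8% (G2VInt) and 59.2% (G2VLo) of cells and almost no Nr2f2. HC1 cluster 7 also has the venous gene Ephb4 in 82.5% and 71.8% of cells.

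Within HC1 cluster 7, Sox17 reads were set against Gja5 reads cell by cell. In G2VInt, 23 of 44 cells with Gja5 had Sox17 (52.3%), against 9 of 19 cells without Gja5 (47.4%). In G2VLo, 26 of 42 cells with Gja5 had Sox17 (61.9%), against 10 of 29 without (34.5%). In EC cluster 2 all 3 cells with Gja5 in G2VInt and all 5 in G2VLo had Sox17, but so did nearly all other cells.

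Joint detection separated the clusters. All 3 SoxF genes were read in 92.6% (82.1 to 97.9) of EC cluster 2 cells in G2VInt, 50 of 54, and in 92.7% (86.7 to 96.6) in G2VLo. EC cluster 1 had all 3 in 64 of 68 cells in G2VInt and 55 of 60 in G2VLo. At E10 all 4 cells of EC cluster 2 and 9 of 10 of EC cluster 1 had all 3, and at E11 7 of 8 and 6 of 7. HC1 cluster 7 had all 3 in 25.9% of E10 cells, 52.2% of E11 cells and 33.3% of E11.5 cells in G2VInt, and in 35.2% in G2VLo. In cluster 7 of the clustering of all cells the E10 share was 45.5% (5 of 11 cells), and the E11 share 51.1%, so the step from E10 to E11 depended on the clustering. With the main clusters the product of the single shares would give 12.7%, 47.9%, 31.5% and 29.8% there, so joint reading was above that product in each set.

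In HC1 cluster 8, reading of all 3 was rare. It was found in 0 of 36 E10 cells (which allows up to 8.33%), 2 of 31 E11 cells and 3 of 39 E11.5 cells in G2VInt, and in 5 of 92 in G2VLo. Sox18 alone was the most frequent pattern, in 17 of 36 E10 cells, 16 of 31 E11 cells and 21 of 39 E11.5 cells in G2VInt, and in 43 of 92 in G2VLo. No member was read in 14, 5, 6 and 19 of these cells in the same order. In HC2, 28 of 44 cells of G2VInt and 21 of 36 of G2VLo held no member at E11.5.

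**Figure D4:**
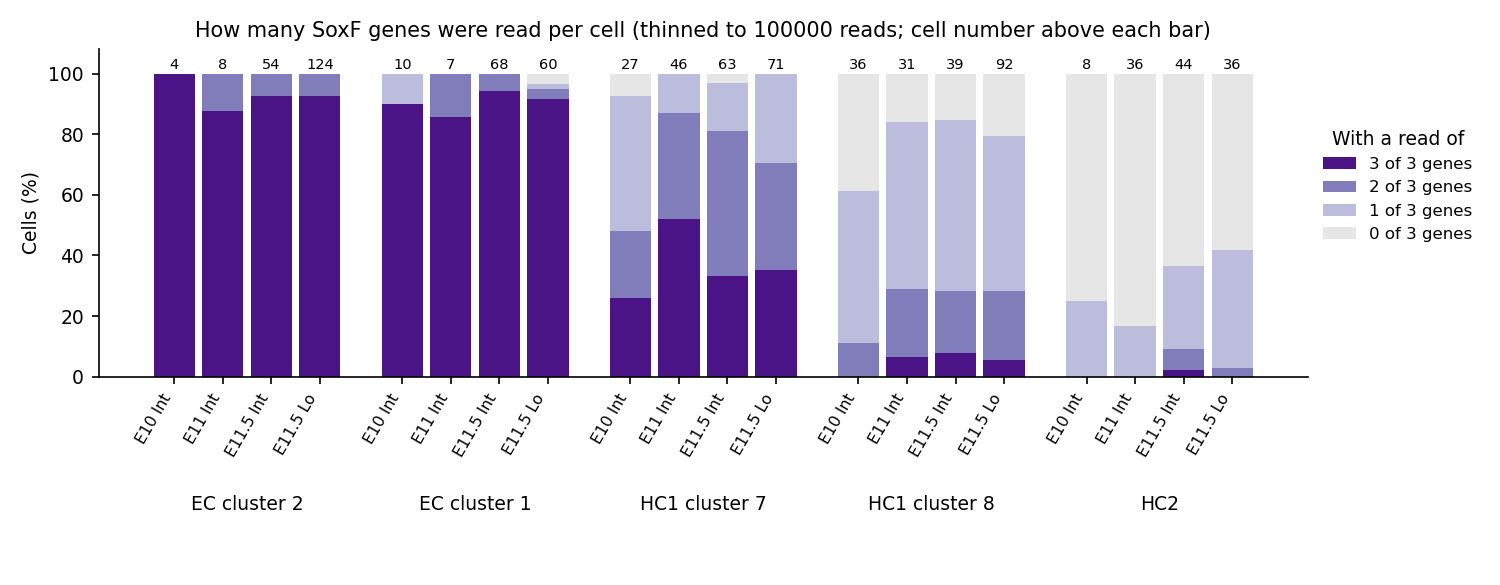
Share of cells in which 3, 2, 1 or 0 of the SoxF genes were read, after thinning to 100000 reads, by cluster, day and gate, with the number of cells above each bar. EC bars are nearly all dark (92.6% with all 3 in EC cluster 2 of E11.5 G2VInt), HC1 cluster 7 is mixed, and HC1 cluster 8 is mostly cells with 1 gene or none.

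Among classes EC, HC1 and HC2, HC2 had the lowest SoxF levels, and reads of the genes were still seen in it. The labels also give classes U1 and U2, which are not described here. Before thinning, 68.2% of HC2 cells in E11.5 G2VInt had a Sox7 read, at a summed level of 0.751 CPM, and 13.9% in G2VLo did, at 0.243 CPM. Thinned shares in HC2 were 15.9% for Sox7 and 6.82% for Sox17 in G2VInt, against 2.78% and 5.56% in G2VLo. The share of HC1 cluster 8 cells with Sox7, 25.6% (13.04 to 42.1) in G2VInt, had an interval that overlapped that of HC2 (6.64 to 30.1), and for Sox17 the shares were 12.8% (4.30 to 27.4) and 6.82% (1.43 to 18.7). In G2VLo both Sox7 and Sox17 were read in 19.6% (12.03 to 29.1) of HC1 cluster 8 cells, against 2.78% (0.0703 to 14.5) and 5.56% (0.680 to 18.7) in HC2. Sox18 was read in 82.1% (66.5 to 92.5) of HC1 cluster 8 and 25% (13.2 to 40.3) of HC2 in G2VInt, and in 73.9% and 36.1% in G2VLo. In HC2 cluster 9 of G2VLo, 12 of 23 cells had a member, 11 of them Sox18 alone.

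Runx1, the regulator of blood cell emergence, was read in 95.8% to 98.9% of HC1 cells in G2VLo and in 98.4% to 100% in G2VInt at E11.5, so nearly every HC1 cell with a SoxF read also had Runx1. Sox17 and Runx1 were read together in 29.6% of E10 cells, 60.9% of E11 cells and 50.8% of E11.5 cells of HC1 cluster 7 in G2VInt, and in 47.9% in G2VLo. In EC cluster 2 Runx1 was read in 6 cells of G2VInt and 10 of G2VLo, and each of those cells had Sox17 and Sox18. Of all cells of that cluster, however, 96.3% in G2VInt and 99.2% in G2VLo had Sox17, and all had Sox18. EC cluster 1 of G2VLo held 5 Runx1 cells, of which 2 had Sox17 and 3 had Sox18, against 54 of 55 other cells for both genes. This rests on few cells, and doublets were not called. The erythroid gene Gata1 stood at 22.6 CPM in this set, with reads in 4 of its cells. Whether these were the Runx1 cells was not tested.

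Within a cluster the members varied with little relation to each other in endothelium. Spearman's rho between per-cell CPM of any pair lay between -0.25 and 0.23 in the EC sets of at least 20 cells, and reached 0.28 in cluster 2 of the clustering of all cells. In HC1 cluster 7 it was 0.64 for Sox7 and Sox17 in 27 E10 cells, 0.36 in 46 E11 cells and 0.14 in 63 E11.5 cells of G2VInt, and 0.28 in 71 cells of G2VLo. On the same 3 days Sox7 with Sox18 gave 0.37, 0.43 and 0.35, and Sox17 with Sox18 gave 0.23, 0.42 and 0.29, so no common course by day was seen. These are descriptions across cells of 1 sample, which share a library block.

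By day, levels in HC1 cluster 7 differed most between E10 and E11 with the main clusters, but this depended on the clustering. In HC1 cluster 7 of G2VInt, Sox7 stood at 62.3 CPM (E10), 142.7 CPM (E11) and 97.6 CPM (E11.5). Over the same days Sox17 stood at 40.3, 82.6 and 52.9 CPM, and Sox18 at 103.5, 228.4 and 207.7 CPM. E11 over E10 gave 2.29 for Sox7, 2.05 for Sox17 and 2.21 for Sox18, all 3 at least 2-fold, against 8.17% of measured genes higher and 2.61% lower. Without 1 cell the Sox17 ratio was 1.78. With all cells clustered together, cluster 7 holds 11 rather than 27 E10 cells, and there Sox7 stood at 130.97 CPM (E10) and 151.6 CPM (E11), Sox17 at 68.1 and 85.4 CPM, and Sox18 at 145.4 and 246.3 CPM, so none of the 3 was 2-fold apart. E11.5 over E10 gave 1.57 (1.51 to 1.63), 1.31 (1.25 to 1.38) and 2.01 (1.95 to 2.07), 1 of 3 at least 2-fold, against 6.58% higher and 3.32% lower. Leaving out single cells moved the Sox17 ratio of E11.5 over E10 between 0.933 and 2.30 and the Sox7 ratio between 1.44 and 2.36, and with the clusters of the clustering of all cells both lay below 1, at 0.766 for Sox17 and 0.778 for Sox7.

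HC1 cluster 8 of G2VInt had the same order at E11 over E10, with Sox7 at 5.81 CPM (E10), 37.7 CPM (E11) and 18.8 CPM (E11.5). Over the same days Sox17 stood at 1.13, 10.3 and 18.6 CPM and Sox18 at 50.6, 107.4 and 88.1 CPM. E11 over E10 gave 6.502 for Sox7, 9.17 for Sox17 and 2.12 for Sox18, all 3 past 2-fold, against 6.07% of genes higher and 2.13% lower, but the Sox17 ratio ranged from 3.30 to 48.8 when single cells were left out, and the Sox18 ratio was as low as 1.81. In cluster 8 of the clustering of all cells Sox17 was lower at E11, at 6.62 CPM (E10) and 4.28 CPM (E11), while Sox7 stood at 7.15 and 23.4 CPM and Sox18 at 54.7 and 81.9 CPM. E11.5 over E10 gave 3.23 for Sox7, 16.6 for Sox17 (4.01 to 88.03 leaving out single cells) and 1.74 for Sox18, 2 of 3 past 2-fold, against 5.20% of genes higher and 3.05% lower. The E11 and E11.5 comparisons share the E10 cells.

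Some arterial genes of HC1 cluster 7 were also higher at E11.5 than at E10. Of 18 listed genes 12 were measured, 6 of them at least 2-fold higher (6.58% of all genes) and 0 at least 2-fold lower (3.32%), with a median log2 ratio of 1.03 against -0.05 for all genes. The kinase Bmx had 53.5 CPM at E11.5 and 4.52 CPM at E10, and Gja4 had 116.9 and 26.5 CPM. In the same cells Lyve1 had 1.07 CPM at E11.5 and 40.6 CPM at E10. In cluster 7 of the clustering of all cells Dll4 had 73.1 CPM at E11.5 and 86.8 CPM at E10, and Gja5 had 111.2 and 89.7 CPM.

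In endothelium EC cluster 2 held only 4 cells at E10 and 8 at E11. Sox17 stood there at 227.5 CPM (E10), 433.05 CPM (E11) and 309.1 CPM (E11.5), Sox7 at 113.9, 118.8 and 202.2 CPM, and Sox18 at 356.2, 674 and 805 CPM. In EC cluster 1 (10, 7 and 68 cells) Sox17 stood at 238.9, 137.5 and 184.8 CPM, Sox7 at 265.5, 369.3 and 301.6 CPM and Sox18 at 435.4, 508 and 596 CPM. With so few cells at the first days no order was read from them.

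Between Venus gates at E11.5, Sox18 was higher in G2VInt in each of the 4 EC and HC1 clusters and the other members were not uniform. The class HC2 went the other way for Sox18, with 2.16 CPM in G2VInt and 24.1 CPM in G2VLo, but its make-up differed between the gates. It held 8, 23 and 13 cells of clusters 9, 10 and 11 in G2VInt, and 23, 7 and 6 in G2VLo. Whether this mix gave the difference was not tested. G2VInt over G2VLo in EC cluster 2 gave 1.12 (1.10 to 1.14) for Sox17, 1.09 (1.07 to 1.12) for Sox7 and 1.39 (1.37 to 1.40) for Sox18. None (0 of 3) reached 2-fold, against 1.41% of 9572 measured genes higher and 0.261% lower by that much. The median gene had a log2 ratio of 0.17, so relative to it Sox17 was about level, Sox7 was slightly lower in G2VInt and Sox18 was higher. Gata2, which drives the reporter, stood at 55.3 CPM in G2VInt and 34.7 CPM in G2VLo in this cluster.

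In EC cluster 1 the ratio was 0.741 for Sox17, 1.45 for Sox7 and 1.36 for Sox18, and 0 of 3 passed 2-fold, against 3.31% of genes higher and 0.980% lower. In HC1 cluster 7 it was 0.744 for Sox17, 0.829 for Sox7 and 1.42 for Sox18, and 0 of 3 passed 2-fold, against 4.35% higher and 1.22% lower. In HC1 cluster 8 it was 1.02 for Sox17, 1.83 for Sox7 and 1.17 for Sox18, and 0 of 3 passed 2-fold, against 3.26% higher and 1.73% lower. The median gene stood at log2 ratios of 0.13 in EC cluster 1, 0.14 in HC1 cluster 7 and 0.14 in HC1 cluster 8. Relative to it Sox17 was lower in G2VInt in EC cluster 1, HC1 cluster 7 and HC1 cluster 8, and about level in EC cluster 2. Sox7 was higher in EC cluster 1 and HC1 cluster 8 and lower in EC cluster 2 and HC1 cluster 7. Without 1 G2VInt cell the Sox17 ratio in HC1 cluster 8 was 0.247, and Sox18 there ranged from 0.998 to 1.24. With TMM scaling Sox17 there was 0.946 and Sox7 in EC cluster 2 was 0.986, while Sox18 stayed above 1 in each of these 4 clusters (1.09 to 1.31). Against G2VLo cells of library numbers above the CD27+ block, HC1 cluster 7 gave 1.26 for Sox7 and 0.424 for Sox17. The gates differ in library block, depth and median mitochondrial share of reads (2.93% in G2VInt, 8.29% in CD27+ and 6.41% in G2VLo cells), which cannot be told apart from Venus.

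In CD27+ cells, compared with G2VLo cells in cluster 8 of the clustering of all cells, Sox7 was lower, Sox17 was higher in summed reads and Sox18 had a ratio near 1. Sox7 stood at 6.78 CPM in 69 CD27+ cells and 20.9 CPM in the G2VLo cells, a ratio of 0.324 (0.284 to 0.368). It was the 1 of 3 members at least 2-fold lower, against 1.99% of 9656 genes lower and 1.23% higher, and it was read in 17.4% (9.32 to 28.4) and 23.6% (16.4 to 32.1) of cells. Sox17 stood at 22.7 CPM in CD27+ and 14.9 CPM in G2VLo cells, a ratio of 1.53 (1.39 to 1.67), and was read in 31.9% (21.2 to 44.2) and 17.9% (11.6 to 25.8) of cells. Sox18 stood at 70.99 CPM in CD27+ and 75.3 CPM in G2VLo cells, a ratio of 0.943, and was read in 73.9% and 70.7% of cells.

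Set against G2VLo cells of library numbers below the CD27+ block, the Sox17 ratio was 2.00, and above it 0.796, so its direction depended on the block. The Sox7 ratio was 0.292 and 0.561 on the same sides. Arterial genes other than SoxF had 0 of 7 measured at least 2-fold higher and 1 of 7 lower, against 1.23% and 1.99% of all measured genes. The lower gene was Gja5, at 5.68 CPM in CD27+ and 31.9 CPM in G2VLo cells, though it was read in 21.7% and 19.5% of them.

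In cluster 7 of the clustering of all cells (16 CD27+ and 57 G2VLo cells) CD27+ over G2VLo gave 0.624 for Sox7, 0.419 for Sox17 and 0.851 for Sox18, 1 of 3 at least 2-fold lower, against 8.96% of genes lower and 6.59% higher. The Sox17 ratio was 0.505 without 1 cell and also against G2VLo library numbers below the CD27+ block, which ends that call, and the Sox7 ratio was 0.451 without 1 cell. In cluster 2 of that clustering, 9 CD27+ cells had all 3 genes read in each cell, at 192.8 CPM for Sox7, 234.96 for Sox17 and 508 for Sox18.

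**Figure D5:**
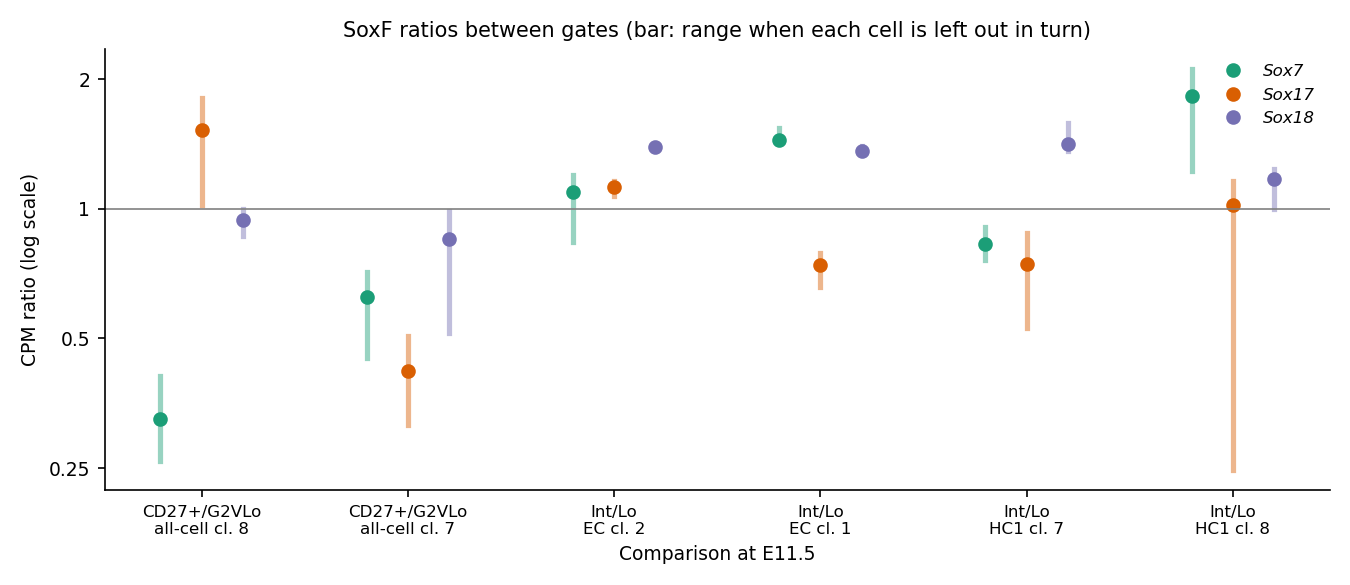
CPM ratios (log axis) of CD27+ over G2VLo cells and of G2VInt (Int) over G2VLo (Lo) cells at E11.5, with the range when each cell is left out in turn. Sox18 lies above 1 in each G2VInt over G2VLo comparison (1.39, 1.36, 1.42 and 1.17), with its range reaching 0.998 in HC1 cluster 8, and Sox7 lies lowest, at 0.324, in CD27+ over G2VLo in cluster 8 of all cells.

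Other genes of the vascular program were taken from lists written with results of these data known, so their counts are descriptions. In EC cluster 2 over HC1 cluster 8 of G2VInt, 11 of 13 measured arterial genes were at least 2-fold higher and 1 lower, and in G2VLo 10 and 2 of 13. Of all measured genes 13.7% were higher and 13.8% lower by that much in G2VInt, and 12.1% and 14.5% in G2VLo. The Notch ligand Dll1 had 30.9 and 0.197 CPM in EC cluster 2 and HC1 cluster 8 of G2VInt, and Efnb2 had 48.8 and 2.44 CPM. The exception was Bmx, with 1.29 and 11.46 CPM. All 7 measured venous and lymphatic genes were at least 2-fold higher in both gates, with a median log2 ratio of 5.66 in G2VInt against 3.45 for arterial genes. Prox1, the lymphatic regulator, had 112.5 CPM in EC cluster 2 and 4.22 CPM in HC1 cluster 8.

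Of all measured genes, 13.7% were at least 2-fold higher in EC cluster 2 than in HC1 cluster 8 in G2VInt and 12.1% in G2VLo. Of genes reported in the literature as SoxF targets, 12 of 12 measured were at least 2-fold higher in both gates. Among them the junction gene Cldn5 had 2118 and 106.7 CPM in G2VInt, and Notch1 had 229.7 and 59.7 CPM. Most of these are endothelial genes, and 15 of 18 pan-endothelial genes were also at least 2-fold higher. Of 8 measured partners and neighbours, 2 were higher (Kdr, Mef2a) and 2 lower (Gata2, Tal1), and Mef2c, a reported partner of Sox18, had 316.4 CPM in EC cluster 2 and 330.8 CPM in HC1 cluster 8 of G2VInt. Of 15 hematopoietic genes, 14 were at least 2-fold lower in G2VInt and 15 in G2VLo, against 13.8% and 14.5% of all measured genes. Mecom was the exception in G2VInt, with 54.6 and 107.4 CPM.

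Of 16 other Sox genes, 4 were measured in this contrast in G2VInt and 3 in G2VLo. Of these, 2 were at least 2-fold higher in each gate, against 13.7% and 12.1% of all measured genes. Sox11 had 156.2 CPM in EC cluster 2 and 3.78 CPM in HC1 cluster 8 of G2VInt, and Sox13 had 30.0 and 3.84 CPM. Sox4 had 74.9 and 44.9 CPM. Sox6 went the other way from SoxF between endothelium and HC1 cluster 7, with 2.14 CPM in EC cluster 2 and 23.4 CPM in HC1 cluster 7 of G2VInt. Between the HC1 clusters it had the same order as SoxF, with 5.55 CPM in HC1 cluster 8. It was below the level filter in EC cluster 2 over HC1 cluster 8 and was named after its values were seen.

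Across 21 cell sets of at least 10 cells, the genes whose log2(CPM + 1) ran closest to each member were ranked among 11730 genes. For Sox7 they were Clec14a (Pearson's r 0.975), Ptprb, S100a16, Lrrc32 and Mmrn2. For Sox17 they were Cldn5 (0.986), Zfp423, Lamb1, Efna1 and Zfp532. For Sox18 they were Ldb2 (0.987), Ecscr, Col4a1, Flt1 and Tro. The members correlated with each other at 0.920 for Sox7 with Sox17, 0.920 for Sox7 with Sox18 and 0.879 for Sox17 with Sox18, so other genes ran closer to each member than its own family did. The sets share libraries and clusters, so these are descriptions.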

How the data were processed

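Messenger RNA was read in 1087 single cells. The values are raw read counts for each Ensembl gene as deposited. The authors counted with HTSeq 0.6.0 on GRCm38, per the submitters' processing notes. The aligner, annotation release, strand setting and read filters are not given in the sources used here. Of 46078 genes, 45143 matched a GENCODE M21 symbol. Depth ran from 117369 to 6999570 reads per cell. No molecular identifiers are mentioned.

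Cells took their day, gate, cluster and class from the labels. Counts were summed per cell set and scaled to CPM. Ratios carry exact conditional binomial 95% intervals. Cells were thinned at random (seed 20) to 100000 reads, which all 1087 reached, before shares were taken. The ratio code was tested on simulated data. Doublets were not called. The lists and members were chosen with earlier results of these data known. Genes named are the members, the 5 most alike genes for each, the listed genes with the largest ratios in EC cluster 2 over HC1 cluster 8, markers, Gata2, Kit, Cd27, Pecam1 and Runx1; others, and genes named in single comparisons, were chosen after their values were seen. Alternatives used edgeR 4.0.16 (TMM) in R 4.3.3, per-cell means, other clusters, block subsets and thinning to 50000 reads. Promoter motifs of the members were not analysed here. A comparison of the members' sequences is not reported here.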

Additional observations from a re-analysis of the deposited data

Results flagged for a closer look

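Between Venus gates at E11.5, Sox7 and Sox17 differed in opposite directions in different clusters, and the difference between clusters was not tested. G2VInt over G2VLo for Sox7 was 1.09 in EC cluster 2, 1.45 in EC cluster 1 and 1.83 in HC1 cluster 8, but 0.829 in HC1 cluster 7. For Sox17 it was 1.12 in EC cluster 2, but 0.741 in EC cluster 1 and 0.744 in HC1 cluster 7. Between sorts, CD27+ over G2VLo for Sox17 was 1.53 in cluster 8 of all cells and 0.419 in cluster 7, also opposite in direction and not tested. Against G2VLo cells of library numbers above the CD27+ block both lay below 1, at 0.796 and 0.283. With TMM scaling the Sox7 ratio in EC cluster 2 was 0.986, and without 1 cell it was as low as 0.838.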

How the results depend on the processing

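No paired analysis was possible because each group is 1 sample of cells and numbers given to cells pair nothing. Over the alternatives to the main ratios, counts and shares, 34 values stayed near the main one, 72 moved without a change of direction and 7 reversed; the causes were not tested. Leaving out 1 cell at a time was added after the data were seen.

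For EC cluster 2 over HC1 cluster 8 in G2VInt no setting reversed a ratio. Leaving out cells gave 8.26 to 16.1 for Sox7, 15.5 to 68.4 for Sox17 and 8.65 to 10.7 for Sox18, and TMM scaling gave 12.3, 18.96 and 10.4. Means of per-cell CPM gave 11.6 for Sox7 and 8.64 for Sox18, and the clustering of all cells 18.7 and 13.8. In G2VLo leaving out cells gave 16.5 to 20.8, 14.7 to 17.1 and 7.54 to 8.12, and TMM 21.1, 17.7 and 9.05. Per-cell means gave 15.02 for Sox7, and the clustering of all cells 9.08 for Sox7 and 19.1 for Sox17. G2VLo library numbers below the CD27+ block gave 16.5 for Sox17, and those above it 7.51, 10.6 and 6.83.

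For G2VInt over G2VLo in EC cluster 2, Sox7 reversed with TMM (0.986) and without 1 cell (0.838 to 1.20). Leaving out cells gave 1.07 to 1.16 for Sox17 and 1.36 to 1.42 for Sox18, and TMM 1.01 and 1.25. Per-cell means gave 1.14, 1.18 and 1.37 for Sox7, Sox17 and Sox18, the clustering of all cells 1.17, 1.24 and 1.43, and upper library numbers 2.26, 1.29 and 1.54; lower numbers gave 1.06 for Sox7.

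For E11.5 over E10 in HC1 cluster 7 the clustering of all cells reversed Sox7 (0.778) and Sox17 (0.766) and gave 1.53 for Sox18. Leaving out cells gave 1.44 to 2.36, 0.933 to 2.30 and 1.91 to 2.35, and per-cell means 1.58 for Sox17 and 1.91 for Sox18. For CD27+ over G2VLo in cluster 8 of all cells, leaving out cells gave 0.260 to 0.408, 1.02 to 1.80 and 0.865 to 0.9999. Upper library numbers gave 0.561 for Sox7 and reversed Sox17 (0.796) and Sox18 (1.17), lower ones gave 2.00 and 0.898, and per-cell means 1.28 for Sox17.

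Without the filter on low levels, genes at least 2-fold higher numbered 5086 and 4325 for EC cluster 2 over HC1 cluster 8 in G2VInt and G2VLo, 2988 for G2VInt over G2VLo (80 with TMM), 4336 for E11.5 over E10 and 4369 for CD27+ over G2VLo. The share of EC cluster 2 cells with all 3 genes was 77.8% in G2VInt and 79.8% in G2VLo when 3 reads were required, 100% and 97.6% unthinned, and 83.1% in G2VLo at 50000 reads. At 100000 reads a cell, the G2VInt shares of Sox7 and Sox17 in HC1 cluster 8 had intervals that overlapped those of HC2.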
